A study of Mus musculus with 13 samples.

Results

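Activity-induced synaptic effector genes is the name used here for a set of genes. As a class, such genes are switched on by a burst of neuronal firing. Their products act at or near the synapse, rather than on transcription. Whether each gene of the set fits this description was not tested. The 10 described here are Arc, Homer1, Nptx1, Nptx2, Arl4d, Plk2, Rgs2, Ptgs2, Rasd1 and Cyr61. They were picked by symbol from the 55291 gene symbols of the count table, and all 10 were found, with Cyr61 listed under its current name Ccn1. They were chosen with their response to the lesions already known, so their differences between lesioned and control cultures are given as a description, with no p on single members. Where members that passed the threshold across all genes are counted, the count is a description too.

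Synaptic activity raises calcium in the postsynaptic neuron, and calcium-dependent kinases then activate transcription factors such as CREB and SRF at the promoters of early response genes. The effectors among these genes act back on the synapse. Arc and Plk2 reduce excitatory synaptic strength, Homer1 and the pentraxins organize glutamate receptors, and Rgs2, Ptgs2 and Rasd1 act on signalling below receptors.

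The libraries came from the CA1 region of organotypic entorhino-hippocampal slice cultures of wildtype C57BL/6 mice, prepared at postnatal day 4 to 5 and matured in vitro for 18 days or longer. The control group, with no lesion, had 5 libraries. In 4 libraries the Schaffer collaterals, the axons from CA3 to CA1, had been cut (Schaffer collateral lesion, SCL), and in 4 the entorhinal cortex had been cut off (entorhinal cortex lesion, ECL). Per the study, CA1 was isolated 3 days after the lesion, and each library held the CA1 of a single culture. All groups shared genotype and strain. The labels do not tie cultures to animals, and they name dentate gyrus in the extraction text while titles and source name CA1. The series asked how CA1 responds to the loss of either input.

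Total counts per library ran from 14371152 to 21092612 in controls, 16405517 to 56786613 after SCL and 20210165 to 46449937 after ECL. The median number of genes with any count was 36899 in controls, 32291.5 after SCL and 29692 after ECL. The part of these library differences in the values below was not tested. The 8 CA1 pyramidal markers summed to a median of 222 TPM, a level scaled for transcript length and library size, in controls, 180.3 after SCL and 187 after ECL. Their ranges overlapped, at 185.5 to 236.7, 165.7 to 213.9 and 144.9 to 285.8 TPM. Of these 8 markers 2 were called lower after SCL and 0 after ECL, with none higher. The 8 dentate granule cell markers had medians of 35.5, 23.8 and 25.4 TPM, with ranges of 33.2 to 38.9, 21.2 to 28.4 and 23.7 to 28.3. Summed microglia markers, in normalized read counts, had ranges of 15085 to 18402 (control), 31162 to 65983 (SCL) and 34967 to 46619 (ECL), and 12 of 12 rose after SCL and 8 of 12 after ECL. The 10 pan-neuronal markers summed to 108570 to 138917 normalized read counts in controls, 95562 to 128460 after SCL and 91506 to 135397 after ECL, and 3 and 5 of them fell. The 8 astrocyte markers gave 4 and 3 higher calls. Over all genes tested, 13.1% (SCL) and 15.2% (ECL) passed an adjusted p of 0.05 as higher, and 11.8% and 12.5% as lower. The part of these marker shifts in the values below was not tested, and in tissue RNA fewer cells of a type and less RNA per cell cannot be told apart. No marker gene of these lists was at 0 in all libraries.

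The promoters of 6 of the 10 genes had an entry in the RefSeq table (build GRCm38.p6), and those of Arc, Nptx1, Nptx2 and Rasd1 did not. Shown are the 250 bases before the transcription start of the 5 genes that hold the motif TGACG, the core of the site that CREB family factors bind. Capitals mark TGACG on either strand, which reads CGTCA on the strand shown when it lies on the other, and overlapping matches run together.
Arl4d (chr11:101665291-101665540, plus strand): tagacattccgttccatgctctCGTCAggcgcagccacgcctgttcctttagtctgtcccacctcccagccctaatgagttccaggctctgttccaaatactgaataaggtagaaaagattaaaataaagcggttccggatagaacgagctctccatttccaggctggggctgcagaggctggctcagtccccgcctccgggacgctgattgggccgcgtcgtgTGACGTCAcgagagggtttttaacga
Plk2 (chr13:110394794-110395043, plus strand): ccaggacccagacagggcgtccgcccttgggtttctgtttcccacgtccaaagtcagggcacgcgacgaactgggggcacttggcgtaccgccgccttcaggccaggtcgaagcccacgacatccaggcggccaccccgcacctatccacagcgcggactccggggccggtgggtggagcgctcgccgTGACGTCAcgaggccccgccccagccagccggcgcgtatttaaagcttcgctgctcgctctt
Rgs2 (chr1:144004150-144004399, minus strand): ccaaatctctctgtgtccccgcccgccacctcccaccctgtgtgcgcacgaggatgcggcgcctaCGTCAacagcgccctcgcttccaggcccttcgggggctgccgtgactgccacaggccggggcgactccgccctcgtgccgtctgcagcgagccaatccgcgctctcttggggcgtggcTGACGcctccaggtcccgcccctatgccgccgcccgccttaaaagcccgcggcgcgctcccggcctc
Cyr61 (chr3:145649986-145650235, minus strand): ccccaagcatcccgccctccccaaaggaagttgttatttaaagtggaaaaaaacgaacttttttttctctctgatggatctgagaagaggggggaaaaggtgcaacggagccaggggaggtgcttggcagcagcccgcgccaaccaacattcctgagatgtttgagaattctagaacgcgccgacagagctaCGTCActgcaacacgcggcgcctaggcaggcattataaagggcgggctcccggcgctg
Homer1 (chr13:93303507-93303756, plus strand): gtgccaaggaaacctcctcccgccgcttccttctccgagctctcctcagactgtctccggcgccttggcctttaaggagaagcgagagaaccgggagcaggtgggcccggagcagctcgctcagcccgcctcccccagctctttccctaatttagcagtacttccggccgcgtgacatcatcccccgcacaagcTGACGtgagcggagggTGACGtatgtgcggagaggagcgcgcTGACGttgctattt

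Arl4d and Plk2 each held 1 full palindrome TGACGTCA, 26 and 62 bases before the start. Of 32851 promoter windows of the same length, 17.8% held TGACG and 1.55% held TGACGTCA. TGACG stood at 2 places in Rgs2, 1 in Cyr61, 3 in Arl4d, 3 in the first of the 2 Homer1 windows and 2 in Plk2, and 3.9% of all windows held 2 or more. Ptgs2 and the other Homer1 window held none. Cyr61 also held TATAAA 25 bases before the start, which 12.4% of windows did. These letters are a description of the sequence and show no binding.

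In control cultures, Plk2 had the highest level per transcript length at 288 ± 62.7 TPM (SD, n = 5), computed from counts over the summed exon length. Cyr61 (159 ± 16.8), Rgs2 (132 ± 32.4), Arc (59.0 ± 10.7) and Arl4d (48.4 ± 10.5) followed on the same TPM scale. Nptx1 (30.7 ± 8.01) and Homer1 (29.0 ± 6.13) did not differ beyond their spread on this scale, nor did Ptgs2 (5.83 ± 4.23) and Rasd1 (5.37 ± 1.70) at the low end, with Nptx2 (17.1 ± 7.82) between them. Using the longest transcript instead of all exons moved the control means of Homer1 to 49.8 TPM, Plk2 to 378 TPM and Cyr61 to 130.3 TPM. On that scale the control mean of Homer1 stood above those of Arc (48.2 TPM), Arl4d (39.6 TPM) and Nptx1 (25.2 TPM). The control libraries of Homer1 (36.2 to 61.4 TPM) overlapped those of Arc (33.1 to 53.8 TPM) and Arl4d (34.1 to 54.8 TPM). They did not overlap those of Nptx1 (17.6 to 33.9 TPM), so the place of Homer1 in this order depends on the length used.

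Arc, whose protein forms virus-like capsids and promotes the removal of AMPA receptors, was high in all control libraries. Its normalized read counts (library-size-adjusted counts on one scale for all 13 libraries) were 2039.7, 1956, 2022, 1390.4 and 1924 in control replicates 1 to 5. They were 451, 613, 479.6 and 386 after SCL and 479, 578, 943 and 1167 after ECL. No lesioned library reached the lowest control library, and the ECL libraries spread more widely than the SCL ones, 40.4% of their mean (CV) against 19.8%. The log2 fold change was -1.95 (SE 0.18) after SCL and -1.23 (SE 0.24) after ECL. The lowest control library, replicate 4, stood apart from the other 4.

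Arl4d, a small GTPase of the ARF family that recruits cytohesins to the plasma membrane, had the largest differences of the 10 genes. Normalized read counts were 591, 626, 933, 702 and 624 in controls. After SCL they were 80.5, 157, 78.5 and 116, and after ECL 101, 109.8, 166 and 207. Every lesioned library lay far below every control library, and the log2 fold changes were -2.68 (SE 0.26) after SCL and -2.25 (SE 0.26) after ECL. Arl4d passed the minimum for testing, a mean of 150 normalized counts, only through its control libraries. Its relatives Arl4a and Arl4c, which share its fold, passed no test, with log2 fold changes of 0.18 (SE 0.20) and -0.02 (SE 0.18) after SCL and 0.23 (SE 0.20) and -0.12 (SE 0.18) after ECL.

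**Figure D1:**
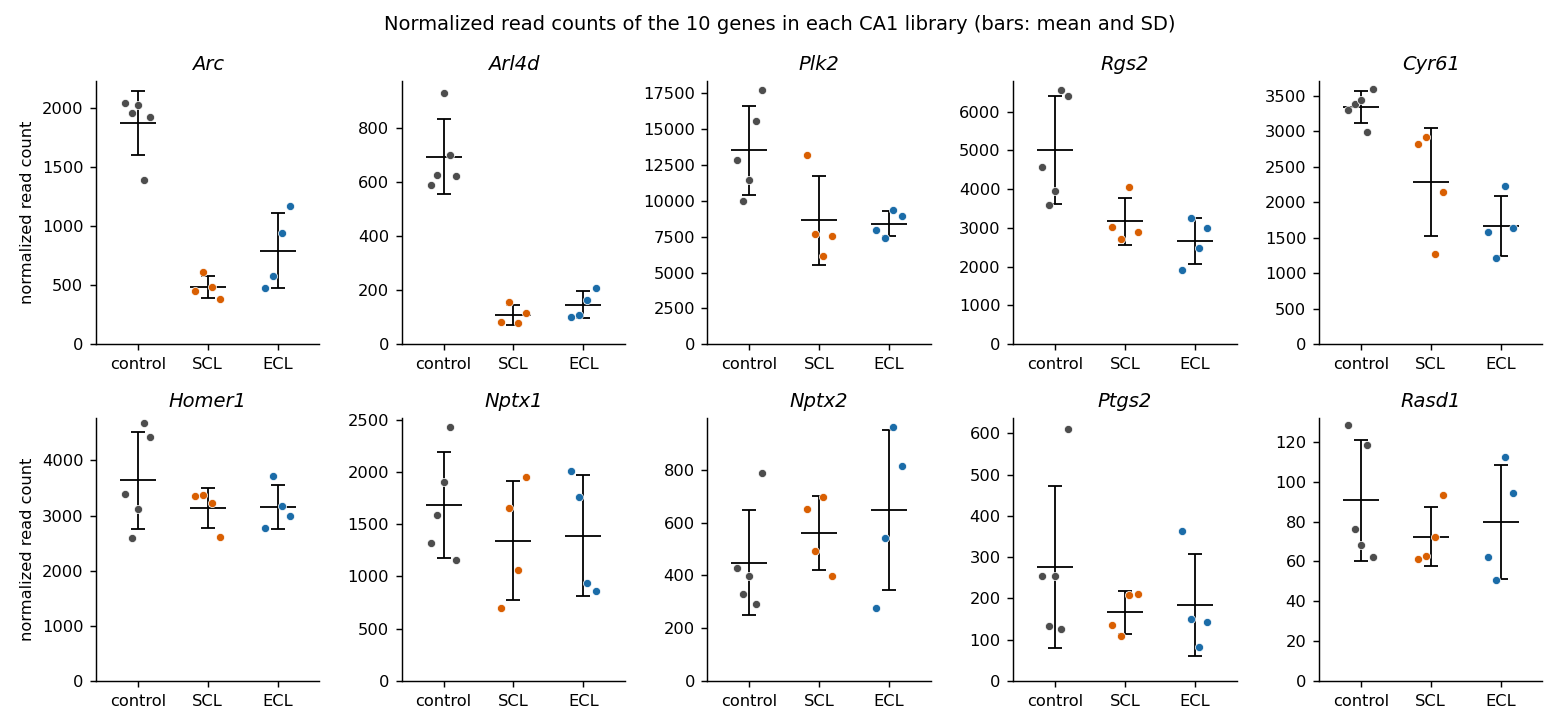
Normalized read counts (vertical axes, each from 0) of the 10 genes by group, with 1 point per library and bars for the mean and SD of 5 control, 4 SCL and 4 ECL libraries. Arc and Arl4d show no overlap between either lesion and control, while Homer1, Nptx1, Nptx2, Ptgs2 and Rasd1 overlap in both.

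Plk2, a kinase that phosphorylates synaptic Ras and Rap regulators during prolonged activity, was the most abundant of the 10. Normalized read counts were 12850.2, 9999.7, 11478, 15555 and 17758 in controls and 7977, 7422, 9359.9 and 8925 after ECL. All ECL libraries were below the lowest control. After SCL, 3 libraries had 6144 to 7669 and SCL replicate 1 had 13217, within the control range. The log2 fold change was -0.64 (SE 0.23) after SCL and -0.68 (SE 0.17) after ECL. With 1 library left out, the SCL value ran from -0.92 without SCL replicate 1 to -0.50 without SCL replicate 3.

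Rgs2, which speeds the turn-off of Gq-coupled signalling, had normalized read counts of 4563, 3588, 3949, 6554 and 6406 in controls. The SCL values were 3016, 2711, 4041 and 2896, and SCL replicate 3 lay above 2 of the controls. The ECL values were 1908, 3264, 2483 and 2999, all below every control. The log2 fold changes were -0.66 (SE 0.20) and -0.90 (SE 0.21).

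Cyr61, a secreted matrix protein of the CCN family, had the tightest control group, with 3300.1, 3379, 3445, 2995 and 3588 normalized read counts. The SCL values were 2817, 2921, 1264 and 2148, and the ECL values 1582, 1214, 2228 and 1631. All 8 lesioned libraries were below all 5 controls, SCL replicate 2 by a small margin. The log2 fold changes were -0.55 (SE 0.20) after SCL and -0.999 (SE 0.17) after ECL. Ccn3, a relative of Cyr61, fell after both lesions, with log2 fold changes of -0.82 (SE 0.24) and -1.01 (SE 0.24), and Ccn2 stayed under the minimum in both comparisons.

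Homer1, a scaffold that links group I metabotropic glutamate receptors to the postsynaptic density, is made as long constitutive forms and a short activity-induced form that ends inside the gene. Counts summed over all its exons did not separate these. They were 3395, 2587, 3115, 4671 and 4428 in controls, 3359, 3369, 3232 and 2604 after SCL, and 2766, 3711, 3172 and 2999.7 after ECL. The groups overlapped, and the log2 fold changes were -0.21 (SE 0.17) and -0.19 (SE 0.18).

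Inside the introns of Homer1 lie 2 annotated genes of the GENCODE type TEC, models that still await experimental support, on the same strand and with no exon base shared. They were named after their values were seen. Gm47088 (chr13:93317427-93319065, build GRCm38) had 602, 489, 772, 726 and 723 normalized read counts in controls. It had 63.3, 74.5, 54.4 and 61.2 after SCL and 90.9, 62.8, 126 and 146 after ECL. The log2 fold changes were -3.38 (SE 0.22) and -2.63 (SE 0.27), given as a description, and the gene passed the minimum of 150 only through its control libraries. Per 1000 Homer1 counts, Gm47088 had 187 ± 36.7 in controls, 20.3 ± 3.04 after SCL and 34.6 ± 13.4 after ECL. Gm47075 (chr13:93312041-93314055) ran from 31.0 to 176 in controls, 8.27 to 26.0 after SCL and 7.42 to 17.5 after ECL, and was under the minimum for testing.

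Genes of the TEC type as a class also gave more counts in controls, with 0.549% to 0.694% of all counts against 0.348% to 0.469% after SCL and 0.387% to 0.552% after ECL. Of 173 TEC genes tested after SCL, 52 fell and 1 rose, with a median log2 fold change of -0.52, and of 167 after ECL, 38 fell and 1 rose, with a median of -0.33. Across genes of all types, 11.8% (SCL) and 12.5% (ECL) of those tested were called lower, and 13.1% and 15.2% higher. The part of the TEC shift in the values of Gm47088 was not tested.

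**Figure D2:**
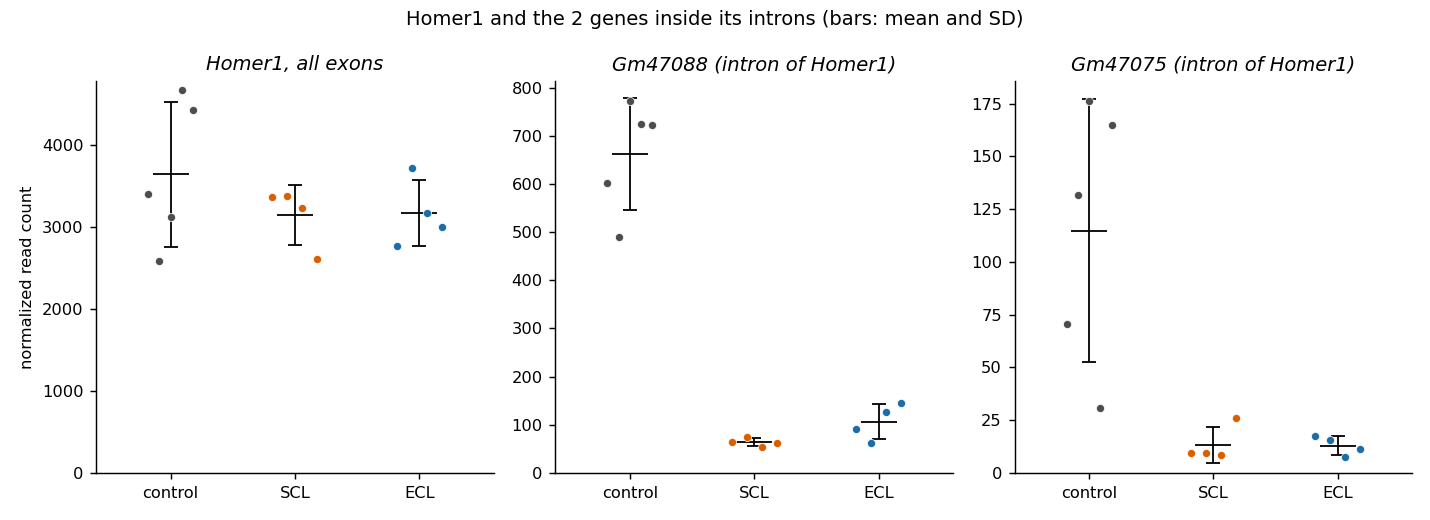
Normalized read counts (vertical axes, each from 0) of Homer1 over all exons and of the 2 genes within its introns, with 1 point per library and bars for mean and SD. Homer1 overlaps between groups, while Gm47088 lies between 489 and 772 in controls and at or below 146 in every lesioned library.

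In a list of genes linked to Homer1, directly or not, the postsynaptic density protein Dlgap1 fell after both lesions. Its log2 fold changes were -0.70 (SE 0.14) after SCL and -0.49 (SE 0.16) after ECL. The scaffold Shank1 had log2 fold changes of -1.14 (SE 0.22) and -1.61 (SE 0.26). Of 10 genes of this list tested after SCL 5 fell, and of 9 tested after ECL 3 fell, with none higher. Among all genes tested, 11.8% (SCL) and 12.5% (ECL) were called lower. Homer2 gave -0.25 (SE 0.18) and -0.34 (SE 0.19), which did not pass, and Homer3 gave 0.34 (SE 0.23) after SCL, which did not pass.

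Nptx1 and Nptx2 are secreted pentraxins that cluster AMPA receptors at excitatory synapses. Nptx1 had 1322, 1587, 1907, 2432 and 1159.5 normalized read counts in controls, 696, 1655, 1062 and 1952 after SCL, and 2004, 1756, 936 and 862 after ECL. Nptx2 had 429, 329, 399, 293 and 790.3 in controls, 654, 492, 699 and 398 after SCL, and 277, 542, 962 and 814 after ECL. Both genes overlapped between the groups. The log2 fold changes of Nptx1 were -0.33 (SE 0.28) and -0.27 (SE 0.27), and those of Nptx2, alone above 0 among the 9 genes tested, were 0.33 (SE 0.28) and 0.54 (SE 0.35). Their receptor-like relative Nptxr gave -0.07 (SE 0.19) and -0.23 (SE 0.19).

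Within the groups, a library with more Nptx1 had less Nptx2. Over the log2 deviations of the 13 libraries from their group means, Pearson's r was -0.81 and Spearman's rho -0.86. Without SCL replicates 1 and 4, the farthest on Nptx1, r was -0.86. The pair was picked after the values of all 45 pairs were seen, and both genes were counted in the same libraries. The median r over the 45 pairs was 0.05, with 5 pairs above 0.5 and 2 below -0.5. The highest was Homer1 with Rgs2 at 0.80, or 0.69 without control replicates 2 and 4.

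**Figure D3:**
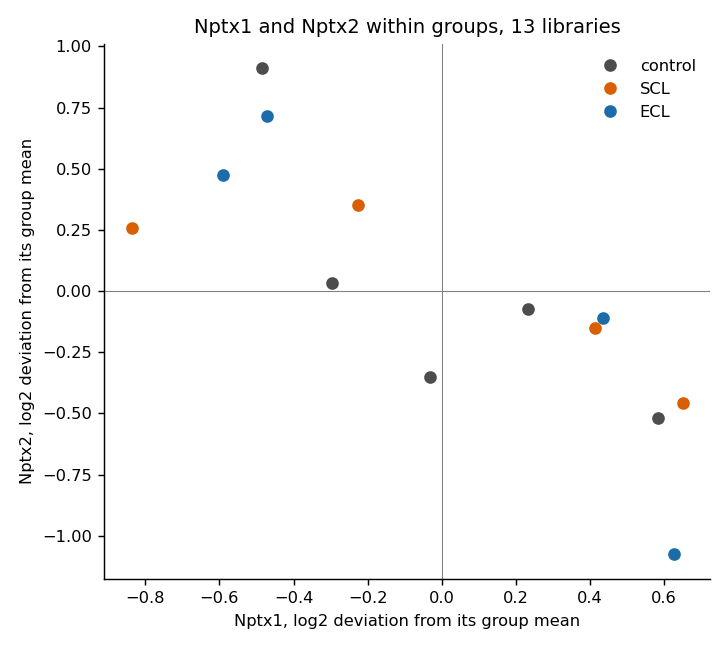
Nptx1 (horizontal axis) against Nptx2 (vertical axis) in each library, both as the log2 deviation from the mean of the library's group, with 1 point for each of 13 libraries. The points run from the upper left to the lower right in all 3 groups, with r = -0.81 over all libraries.

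Ptgs2, the inducible cyclooxygenase, and Rasd1, a Ras-like protein, were low. Ptgs2 had 254, 133, 255, 127 and 610.1 normalized read counts in controls, 136, 109, 207 and 211 after SCL and 363, 149, 81.6 and 144 after ECL. A single high control library, replicate 5, raised its control mean, and the groups overlapped. The log2 fold changes of Ptgs2 were -0.73 (SE 0.43) and -0.55 (SE 0.48), and without control replicate 5 they were -0.22 and -0.04. Rasd1 ran from 62.4 to 128 in controls, 61.3 to 93.3 after SCL and 50.4 to 113 after ECL, and it was under the minimum for testing in all comparisons.

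In the prostaglandin pathway around Ptgs2, the constitutive Ptgs1 gave 0.28 (SE 0.16) and -0.03 (SE 0.16), which did not pass. Ptgds, the prostaglandin D synthase, rose by 1.08 (SE 0.22) and 1.50 (SE 0.23) on the log2 scale. Of 8 pathway genes tested, 2 rose and 0 fell after SCL, and 2 rose and 1 fell after ECL. The shares over all genes tested were 13.1% (SCL) and 15.2% (ECL) called higher, and 11.8% and 12.5% called lower. Nothing is read from these pathway counts. Cbr1, a carbonyl reductase, rose after ECL at 0.64 (SE 0.17) and Ptges3 fell at -1.74 (SE 0.34).

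Of the 10 genes, 9 were tested after SCL and 3 passed an adjusted p of 0.05, Arc, Arl4d and Rgs2, all lower, where 11.8% of all 11438 genes tested passed as lower, 13.1% as higher and 24.9% in either direction. After ECL 9 were tested and 5 passed, Arc, Arl4d, Plk2, Rgs2 and Cyr61, all lower, where 12.5% of 11212 genes passed as lower, 15.2% as higher and 27.8% in either direction. The members were chosen on these contrasts, so nothing is read from these counts. Groups did not overlap for 3 genes after SCL (Arc, Arl4d and Cyr61; 11.5% of all genes were lower without overlap) and for the 5 called genes after ECL (12.2%). Across the 9 genes the log2 fold changes had medians of -0.64 (SCL) and -0.68 (ECL), beside 0.01 and -0.01 for all genes in the fits. Both comparisons share the same control libraries. The call of Rgs2 after SCL was lost under 9 of 19 alternatives, and Plk2 and Cyr61 after SCL gained one under 5 and 2. That of Plk2 after ECL was lost under 1 of 19, TMM over all symbols.

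**Figure D4:**
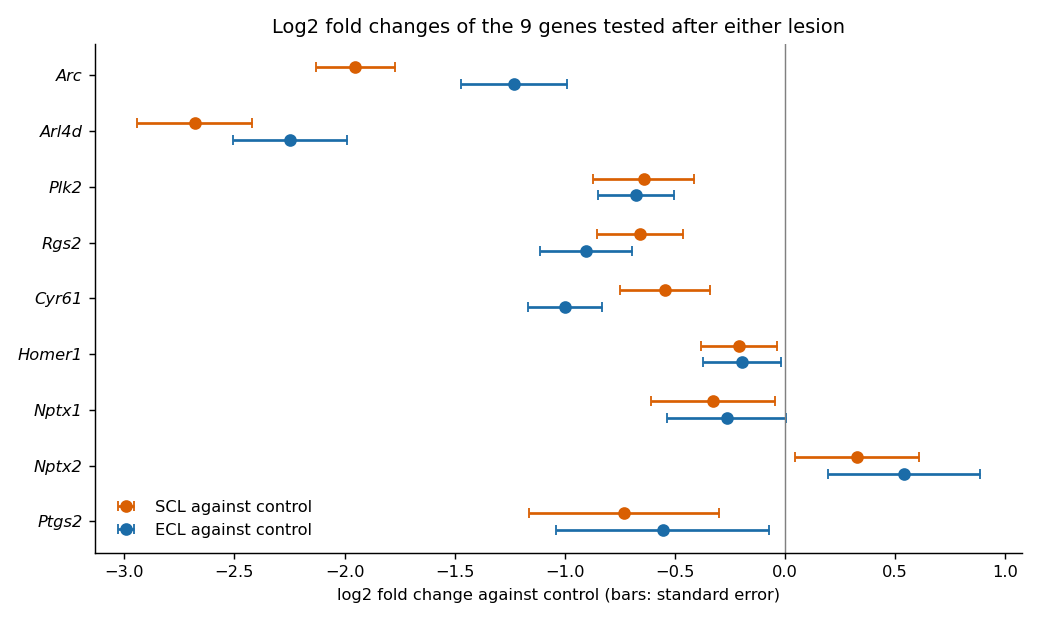
Log2 fold change against control (horizontal axis) of the 9 genes tested, with bars for the standard error, after SCL and after ECL. Arl4d and Arc lie farthest below 0, and Nptx2 alone lies above 0 after both lesions.

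ECL against SCL uses no control library and was tested. The members were chosen with both lesion-against-control results known, from the same lesioned libraries, so that choice is not fully independent of this comparison. By the column headings of the files, SCL held 1 male and 3 female cultures, ECL 3 male and 1 female, and control 2 male and 3 female, so sex was unbalanced in this comparison. Of 12232 genes, 0 passed an adjusted p of 0.05 by edgeR's quasi-likelihood test (0% called), 897 had an unadjusted p under 0.05, and DESeq2 called 62. Of the 10 genes, 8 were tested, none passed and none was without overlap, where 3.83% of all genes were (1.55% higher and 2.27% lower after ECL). Arc was the farthest apart, with a log2 difference of 0.72 (SE 0.27, approximate 95% interval 0.06 to 1.38, edgeR adjusted p = 0.622), and higher after ECL in the means, 792 ± 320 against 482 ± 95.6 (SD, n = 4 each). With sex as a term, the log2 difference of Arc was 0.54 (edgeR adjusted p = 0.656) and none of the 8 genes passed. Cyr61 gave, without that term, -0.45 (SE 0.26, interval -1.09 to 0.18, edgeR adjusted p = 0.748). The intervals of Rgs2 (-0.70 to 0.22), Plk2 (-0.57 to 0.51), Homer1 (-0.32 to 0.36), Nptx1 (-0.78 to 0.90), Nptx2 (-0.59 to 1.03) and Ptgs2 (-0.81 to 1.17) all held 0, and a missed threshold does not show that the lesions act alike. Arl4d and Rasd1 were under the minimum. With no filter on low counts, Arl4d gave 0.43 (edgeR adjusted p = 0.699) and Rasd1 0.16 (edgeR adjusted p = 0.923).

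Other activity-induced genes give the setting, beside shares over all genes tested of 11.8% (SCL) and 12.5% (ECL) called lower, and 13.1% and 15.2% called higher. Of 22 activity-induced transcription factors tested after SCL 14 fell, and of 20 after ECL 13 fell, with none higher and medians of -1.01 and -0.86. Egr2, a zinc finger factor, went from 2349.96 ± 811 normalized read counts in controls to 73.8 ± 31.7 and 116 ± 43.7, and Ier2 from 1855 ± 377 to 229.7 ± 40.2 and 255 ± 54.3. Of 24 other activity-induced effectors tested, 7 fell after SCL, and 9 fell and 1 rose after ECL, with medians of -0.29 and -0.34. Egr2 and Pim1, which fell after both, also passed the minimum only through their control libraries, as did Klf4, called lower after SCL. The counts of genes that fell include these genes, which could be tested only because they were high in controls. Dusp1, a phosphatase of MAP kinases, fell, with log2 fold changes of -1.80 (SE 0.18) and -1.52 (SE 0.18), as did Btg2, at -1.51 (SE 0.15) and -1.26 (SE 0.16). Nrn1, which codes for neuritin, rose by 0.76 (SE 0.26) after ECL.

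The counts for the partners of the remaining members stand beside the shares over all genes tested. Those called lower made up 11.8% (SCL) and 12.5% (ECL), those called higher 13.1% and 15.2%. Of 14 pentraxin and AMPA receptor partners tested, 4 fell after SCL and 2 after ECL, with none higher. Sh3gl3, an endophilin, fell with log2 fold changes of -0.57 (SE 0.16) and -0.71 (SE 0.16), and the receptor subunit Gria1 gave -0.47 (SE 0.14), which passed, and -0.22 (SE 0.14), which did not. Of 13 RGS and G protein genes 2 rose and 2 fell in each comparison, with Rgs10 at 0.85 (SE 0.17) and 0.81 (SE 0.18), and Rgs4 at 0.21 (SE 0.20) and 0.24 (SE 0.18), which did not pass. The G protein subunit genes Gnai1, at -0.59 (SE 0.19) and -0.76 (SE 0.18), and Gnaq, at -0.42 (SE 0.14) and -0.45 (SE 0.15), fell, and Gnai2, at 0.70 (SE 0.20) and 0.92 (SE 0.20), rose. Of 11 Ras-like and ARL4 partners, 1 rose in each comparison and 1 fell after SCL and 2 after ECL. Cyth4, a cytohesin, rose by 1.19 (SE 0.26) and 0.86 (SE 0.25), Arf6 fell by 0.56 (SE 0.17) after ECL, and Peg3 fell, with log2 fold changes of -0.42 (SE 0.12) and -0.41 (SE 0.13). Of 8 genes of the CCN list, 1 rose and 1 fell in each comparison, Itgb5, an integrin subunit, at 1.23 (SE 0.23) and 1.04 (SE 0.23), and Ccn3. Plk3, Ptges and Rasd2 were under the minimum in both.

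By the mean standardised deviation of the members within groups, the genes most like them among 11147 included Sfswap (r = 0.91), Fosl2 (0.90), Lrrfip1 (0.88) and Fras1 (0.87), over 13 libraries. These are among the highest of many correlations, given with no test, and all came from the same libraries as the members.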

How the data were processed

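CA1 RNA from 13 cultures was sequenced as polyA libraries. The deposited values are raw gene counts, which the authors made with cutadapt 3.5, STAR 2.7.8a (mm10) and unstranded featureCounts 2.0.1 on GENCODE M25. Among counts of 1 to 20, 63.0% to 74.3% were even, so halved counts were tried. Groups came from the labels. The number and sex in the column headings differ from the title numbers.

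Each comparison was fitted with edgeR 4.0.16 (R 4.3.3; quasi-likelihood, TMM, two-sided, Benjamini-Hochberg over all genes tested) on genes with a mean of at least 150 normalized counts, the minimum used by the study. Intervals cover 95%. TPM used exon lengths of GENCODE M21. The test was run on simulated counts, and the outcome is not reported here. The members and lists were chosen with earlier results of these data known. All members and their partners were named, with up to 2 called genes per direction and list and the 5 genes most like the members; some of the genes this rule selects are not reported here. Alternatives were DESeq2 1.42.0, other scalings and filters, a single fit, a sex term, replicate blocks and leaving out each library.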

Additional observations from a re-analysis of the deposited data

Results flagged for a closer look

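In 3 of the 30 sets of libraries (10 genes in 3 groups), 1 library stood apart from the others by Dixon's test, where chance gives about 1 in 20. Arc was lowest in control replicate 4, at 1390.4 normalized read counts, with the next control library at 1924. Nptx2 was highest in control replicate 5, at 790.3, with the next at 429. Ptgs2 was highest in the same library, at 610.1, with the next at 255.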

How the results depend on the processing

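No called member changed direction in any alternative run. Genes called after SCL numbered 2848, and 5390 with no filter, 1824 with a block on the heading numbers (chosen after seeing the data) and 1679 to 2797 with 1 library left out, lowest without SCL replicate 3. After ECL they numbered 3114, 8034 with no filter and 2088 to 3062 with 1 left out. For ECL against SCL they numbered 0, and 62 with DESeq2, 217 with no filter, 1 with a single fit of all libraries, 1 with a sex term and 0 to 54 with 1 left out, 54 without SCL replicate 3 and 2 without ECL replicate 4. Members called after SCL were 2 to 5 against 3, with 5 under DESeq2, and after ECL 4 to 6 against 5. For ECL against SCL 1 member, Arc, was called with no filter (log2 difference 0.71, adjusted p 0.0477). TMM over all symbols moved the median log2 fold change to 0.21 and 0.18 and the share of calls that were higher from 52.8% and 54.8% to 80.8% and 77.8%. The cause of these changes was not tested. Correlations did not settle whether the title numbers pair the samples. Over 12 same-numbered pairs, r ran from -0.15 to 0.53, 5 pairs passed 0.1, and 5 of 13 libraries correlated best with their own number. With the title number as a replicate block, 2336 genes were called after SCL, 2680 after ECL and 0 for ECL against SCL. Under that block 3 members were again called after SCL, with Nptx2 (log2 fold change 0.61) in and Rgs2 out, and 5 after ECL. Rasd1, at 50.4 to 128 normalized counts, was left out by the minimum. Its log2 fold changes after SCL and ECL were -0.12 and 0.01 with no filter and -0.26 and -0.11 with edgeR's own filter, none of them called.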
